A study of Homo sapiens with 6 samples.

Results

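The genes described here are 30 targets and regulators of p53, chosen by name, called p53 targets below, and read in 6 Affymetrix arrays of 76N, a human cell line of normal mammary epithelium. Of the 30, 27 genes had at least 1 probe set whose only gene symbol in the platform annotation was that gene, out of 19775 genes so named on the array, and they had 77 such probe sets together. BTG2, FDXR and BBC3 had none and were not analysed here, and neither was the transcript of p53 itself, so the data bear on the targets of p53 and not on p53. There were 3 cultures transfected with an siRNA against Ecd and 3 transfected with a control siRNA, all grown in DFCI-1 medium, with total RNA from each culture on its own array. Neither the siRNA sequences nor their dose nor the time to harvest was given in the sources used here. The design asks which transcripts differ between the cultures given Ecd siRNA and those given control siRNA.

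p53 is a transcription factor that is held at a low level by MDM2, the ubiquitin ligase that marks it for degradation, and by the related protein MDM4. When DNA damage or another stress releases it, p53 binds DNA elements near its target genes and raises the transcription of genes that stop the cell cycle, repair DNA, adjust metabolism and redox state, or start apoptosis. MDM2 is itself one of these targets, which closes a feedback loop. ECD encodes the human counterpart of the Drosophila protein ecdysoneless, and the human protein has been reported to bind p53. Transcripts alone were measured, so neither the amount nor the activity of p53 protein was read.

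The DNA element that p53 binds is a pair of 10-base half-sites, each with a C and a G around A or T letters and with purines before and pyrimidines after them. The RefSeq promoter table of GRCh38.p14 was searched for the p53 response element consensus as 20 adjacent bases, with the C and the G of both half-sites required and at most 2 mismatches elsewhere; the consensus reads the same on both strands, so 1 scan covers both. Each window runs from 250 bases before a gene's start to 50 bases after it. Of 35116 windows in the table, 100 held such an element, which is 0.285%. The table held 36 windows of 25 of the 30 genes, and 4 of these windows, from MDM2, FAS and AEN, held one, each with 2 mismatches. These 3 are shown because they are the targets whose start region carries the closest match to the element; p53 elements of other targets can lie outside the window, and a match is a description of letters and not a measured site. The capitals mark the 20 bases of the match.
MDM2: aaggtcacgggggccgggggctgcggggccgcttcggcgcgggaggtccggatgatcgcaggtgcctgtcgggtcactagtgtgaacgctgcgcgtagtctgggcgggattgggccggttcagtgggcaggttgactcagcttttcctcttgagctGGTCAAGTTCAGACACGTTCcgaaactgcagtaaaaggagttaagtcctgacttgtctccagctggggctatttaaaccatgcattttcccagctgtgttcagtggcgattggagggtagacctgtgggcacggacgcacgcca
FAS: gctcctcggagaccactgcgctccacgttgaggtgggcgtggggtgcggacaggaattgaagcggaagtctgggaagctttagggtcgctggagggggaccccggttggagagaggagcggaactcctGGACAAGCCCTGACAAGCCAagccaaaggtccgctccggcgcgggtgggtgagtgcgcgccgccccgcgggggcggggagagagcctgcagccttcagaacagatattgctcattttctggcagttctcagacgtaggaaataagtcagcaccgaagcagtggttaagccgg
AEN: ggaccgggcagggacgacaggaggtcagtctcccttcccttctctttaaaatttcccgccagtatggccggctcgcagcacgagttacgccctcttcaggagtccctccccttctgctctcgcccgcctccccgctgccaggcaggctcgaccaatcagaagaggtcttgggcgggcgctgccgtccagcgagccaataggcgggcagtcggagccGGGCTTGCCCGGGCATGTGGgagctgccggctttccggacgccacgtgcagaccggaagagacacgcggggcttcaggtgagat
The MDM2 window is chr12:68808767-68809066 on the plus strand, with the match starting 94 bases before the start; a second MDM2 window, 7 bases further on, holds the same match. The FAS window is chr10:88991181-88991480 on the plus strand, with the match 122 bases before the start. The AEN window is chr15:88621090-88621389 on the plus strand, with the match 34 bases before the start. None of the transcripts of MDM2, FAS and AEN passed the threshold described next, with log2 changes of 0.11, 0.15 and -0.20.

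ECD, the transcript that the siRNA targets, fell. ECD had signals of 588.9, 599.8 and 542.5 with Ecd siRNA and of 1076.6, 1011.4 and 1007.2 with control siRNA, a log2 change of -0.82 with an SE of 0.10 (limma adjusted p = 0.000172). Array medians ran from 128.7 to 147.6, and log2 signals of tested genes correlated at 0.977 to 0.981 between arrays of a group and at 0.952 to 0.961 between the groups. The 3′ to 5′ signal ratio of the GAPDH control probe sets was 0.974 to 1 with Ecd siRNA and 0.974 to 0.98 with control siRNA, and that of ACTB was 1.07 to 1.16 with Ecd siRNA and 1.07 to 1.11 with control siRNA. The cells carried the markers of basal mammary epithelium: all 7 analysed of 10 markers, among them KRT5, KRT14 and ITGB4, lay above the filter. Of the 7, CDH3 and ITGB4 were called higher with Ecd siRNA and 0 lower. Their summed signal was 94732 to 105810 with Ecd siRNA, against 87582 to 96753 with control siRNA. Of 10 luminal markers 8 lay above the filter, with GATA3 and CD24 called higher and KRT18 lower. The summed signal of the 10 was 28535 to 31714 with Ecd siRNA, against 27454 to 28467 with control siRNA, without overlap. Of leukocyte markers LCP1 lay above the filter and PTPRC, CD14 and CD3E under it, and of endothelial markers PECAM1 and TEK lay above it and CDH5, VWF and KDR under it, with 0 of these 3 tested genes called by limma, also at an unadjusted p under 0.05. The summed endothelial signal was 790.8 to 897.6 with Ecd siRNA, against 900.4 to 998.5 with control siRNA, without overlap. The summed leukocyte signal was 138.3 to 270 with Ecd siRNA, against 232.7 to 474.2 with control siRNA. Fibroblast markers moved with the groups too. Of 14, 10 were tested, 6 were higher and 0 lower, beside 10.1% higher and 11% lower over all tested genes. The 6 were LOX, FAP, MMP2, COL6A1, FBN1 and COL1A1. MMP2, FAP and LOX had the highest signals of these. Their means were 5998.43, 5334.17 and 5043.4 with Ecd siRNA, against 3478.07, 2609.63 and 1927.87 with control siRNA. The tested markers not called were COL1A2, COL6A2 and THY1, at log2 changes of -0.17, -0.35 and -0.32, and DCN, at 0.11. The summed signal of all 14 was 19772 to 22155 with Ecd siRNA, against 11029 to 11618 with control siRNA, also without overlap. Of the 14, COL3A1, PDGFRA, PDGFRB and LUM lay under the filter, and 0 were at 0. The part of the basal, luminal, endothelial and fibroblast markers in the results below was not tested. A change in the share of cells of a type and a change in RNA per cell cannot be told apart in such bulk RNA.

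The p53 targets went both ways after Ecd siRNA, by modest amounts. Each gene was read by its brightest probe set, all 27 lay above the filter on dim probe sets (a signal of 84.6), and a gene is called higher or lower where its limma p, adjusted by Benjamini-Hochberg over 14603 tested genes, was under 0.05. By this rule 7 of the 27 rose and 4 fell, and 16 did not pass. Over all tested genes 10.1% were called higher and 11% lower, 21.1% together, against 40.7% of the 27. The 27 were chosen with earlier results of these data known, so this contrast is a description and not a test. The counts by role below are to be read beside the same shares over all tested genes. The median log2 change of the 27 was 0.08, and of all tested genes 0.008. The log2 changes of the targets ran from -0.93 to 0.75, and 0 of the 27 were beyond 1 in either direction, as 3.57% of all tested genes were. Signals of the groups did not overlap in 15 of the 27, of which 9 were higher and 6 lower with Ecd siRNA; over all tested genes 36.4% did not overlap, 18.1% higher and 18.3% lower. The plot of changes by role shows rises and falls side by side within most roles.

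**Figure D1:**
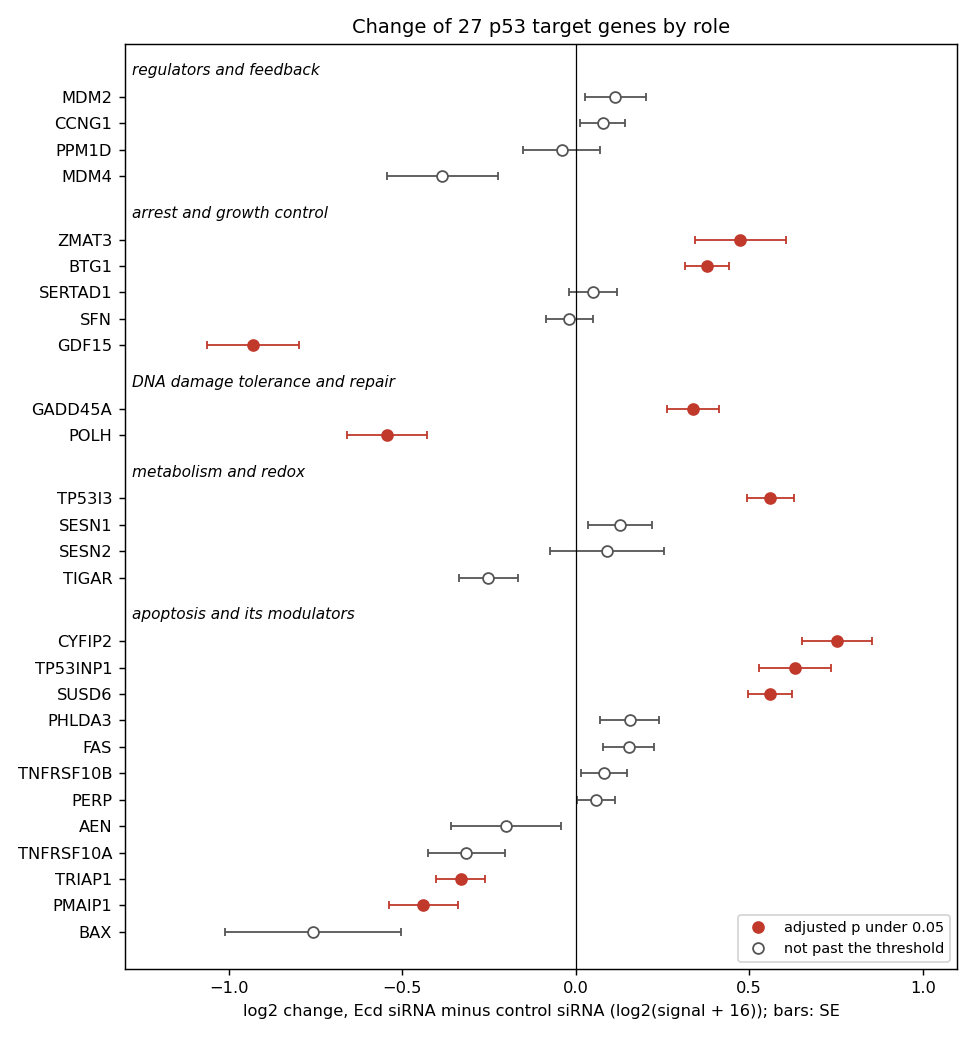
Log2 change of 27 p53 target genes (x axis, Ecd siRNA minus control siRNA, log2(signal + 16)), each read by its brightest probe set and grouped by role down the page, n = 3 arrays per group. Points are limma estimates, bars are SEs, and filled red points passed an adjusted p of 0.05. The 7 rises and 4 falls lie between -0.93 and 0.75, and the regulators and feedback genes hold 0 filled points.

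Among the genes that hold p53 in check or feed back on it, 0 of 4 passed the limma threshold, and 1 of 4, MDM4, had an unadjusted p under 0.05. MDM2 had signals of 3791.6, 4587.1 and 4717 with Ecd siRNA and of 4063, 3909.1 and 4067.5 with control siRNA. The lowest Ecd siRNA array lay below all 3 control arrays and the others above them, so the groups overlapped. The log2 change was 0.11, with a 95% confidence interval of -0.08 to 0.31 (limma adjusted p = 0.42). Leaving out 1 array at a time gave 0.06 without Ecd siRNA replicate 3 (adjusted p = 0.741) to 0.21 without Ecd siRNA replicate 1 (adjusted p = 0.051). MDM2 was read by 10 probe sets, of which 8 were above the filter, and of these 7 were higher and 1 lower with Ecd siRNA, with 0 past the limma threshold when every probe set was tested on its own and 1 at an unadjusted p under 0.05. The probe set at an unadjusted p under 0.05 had mean signals of 4005.43 with Ecd siRNA and 3471.57 with control siRNA. Its groups did not overlap (log2 change 0.205, limma adjusted p = 0.0769), nor did those of another at 0.348 (adjusted p = 0.239). The widest of the 8, at 1.04, had control signals of 177.5, 115.9 and 16.9, and its adjusted p was 0.245.

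MDM4, which binds p53 and blocks its activity, had signals of 302.2, 370.6 and 413.4 with Ecd siRNA and of 510.1, 394.8 and 527.8 with control siRNA. The highest Ecd siRNA array lay above the lowest control array. The log2 change was -0.38 with an interval of -0.74 to -0.03, and the adjusted p was 0.122. With Ecd siRNA, MDM4 was lower in all 5 probe sets that cleared the filter, by 0.04 to 0.52 on the log2 scale. Of the 5, 0 passed the limma threshold, with 2 at an unadjusted p under 0.05. In the probe set at -0.52 the groups did not overlap (limma adjusted p = 0.0671 when tested singly). Nor did they in the one at -0.23 (adjusted p = 0.461). PPM1D, the phosphatase WIP1 that switches off p53 and the damage kinases, was at -0.04 (interval -0.29 to 0.21). CCNG1, cyclin G1, which directs a phosphatase to MDM2, was at 0.08 (interval -0.07 to 0.22). These intervals still allow changes of up to 0.31 in size for MDM2, 0.74 for MDM4 and 0.29 for PPM1D.

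In the group of arrest and growth control, 2 of 5 measured genes rose, 1 fell and 2 did not pass. BTG1, an antiproliferative protein that binds the deadenylase complex, had signals of 12699.7, 13264.5 and 14383.6 with Ecd siRNA and of 10141.8, 10214.3 and 10625.7 with control siRNA. Every Ecd siRNA array was above every control array, and the mean was 130% of the control mean (log2 change 0.38, SE 0.06, limma adjusted p = 0.00174). All 3 BTG1 probe sets were called higher when tested singly, at 0.38, 0.48 and 0.84.

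ZMAT3, a zinc finger protein that binds RNA and acts in splicing, had signals of 3219.3, 2164.7 and 2314.6 with Ecd siRNA and of 1736.1, 1867.2 and 1845.3 with control siRNA. There was no overlap, and Ecd siRNA replicate 1 stood well above the other two. The log2 change was 0.47 (SE 0.13, limma adjusted p = 0.0266). Its 5 probe sets were all higher, from 0.32 to 0.58, and 2 of them passed singly. Without Ecd siRNA replicate 1 the change was 0.30 (adjusted p = 0.0318). The call did not hold without control siRNA replicate 1, 2 or 3, with adjusted p of 0.0922, 0.0501 and 0.0592 and log2 changes of 0.44 to 0.49, nor without the intensity trend (adjusted p = 0.1).

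GDF15, a secreted stress cytokine of the TGF-beta family, showed the largest fall among the 27. Its signals were 365.2, 462.1 and 383.9 with Ecd siRNA and 777, 882.5 and 692.5 with control siRNA. All Ecd siRNA arrays lay below all control arrays, and the mean was 51.5% of the control mean (log2 change -0.93, SE 0.13, limma adjusted p = 0.000663). This value comes from an _x_at probe set, a kind that can bind transcripts of several genes, and it was the only one of 3 above the filter. Of the dim ones, one had signals of 61, 31.1 and 46.1 with Ecd siRNA and of 14.8, 16.6 and 21.2 with control siRNA, the opposite direction, and the other had 4.2 to 8.9 on every array. The mean over the 3 probe sets gave -0.05 (adjusted p = 0.882), so the fall of GDF15 rests on 1 probe set.

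SFN encodes 14-3-3 sigma, an epithelial protein that keeps cyclin B and CDK1 in the cytoplasm. SFN had signals of 24613.4, 22450.3 and 21735.2 with Ecd siRNA and of 24041.8, 24177 and 21510 with control siRNA. The groups overlapped, with a log2 change of -0.02 and an interval of -0.17 to 0.13. The other 2 SFN probe sets were at 0.04 and, in the less bright one, at -0.18 (adjusted p = 0.199 when tested singly). The signals of the brightest probe set are near the top of the array range, whose highest values were 24572.8 to 27986.8. SERTAD1, a regulator of CDK4 and E2F activity, was at 0.05 (interval -0.11 to 0.20).

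The DNA damage tolerance and repair genes split. GADD45A, a stress sensor that binds PCNA and takes part in repair and G2 arrest, had signals of 6675.4, 5828.2 and 6173.7 with Ecd siRNA and of 4769.7, 5251.9 and 4741.9 with control siRNA. The groups did not overlap, and the mean was 127% of the control mean (log2 change 0.34, SE 0.07, limma adjusted p = 0.00839). The call did not hold without the intensity trend (adjusted p = 0.0603).

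POLH, the polymerase eta that copies past UV lesions, had signals of 435.6, 486.6 and 536.4 with Ecd siRNA and of 673, 744.4 and 725.5 with control siRNA in its brightest probe set. Here too the groups were apart, with Ecd siRNA lower (log2 change -0.54, SE 0.11, limma adjusted p = 0.00683). Of the 6 POLH probe sets, 5 were lower and 1 was higher, at 0.01, and only the brightest passed singly. As the mean of its probe sets POLH was at -0.23 with an adjusted p of 0.158.

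Of 4 measured genes of metabolism and redox control, 1 rose and 3 did not pass. TP53I3, a quinone oxidoreductase also called PIG3 that produces reactive oxygen species, had signals of 4984.9, 4554.1 and 4506.9 with Ecd siRNA and of 3089.5, 3257.7 and 3151.2 with control siRNA. The lowest Ecd siRNA array was well above the highest control array, and the mean was 148% of the control mean (log2 change 0.56, SE 0.07, limma adjusted p = 0.000253). TIGAR, which lowers glycolytic flux as a fructose bisphosphatase, had signals of 3301.7, 2667.7 and 2850.7 with Ecd siRNA and of 3468.7, 3522.5 and 3487.2 with control siRNA. The groups did not overlap, but the Ecd siRNA arrays were spread and the change of -0.25 did not pass (interval -0.44 to -0.06, adjusted p = 0.0593). Without Ecd siRNA replicate 1, TIGAR was at -0.34 and passed (adjusted p = 0.0091), and without Ecd siRNA replicate 2 it was at -0.19 (adjusted p = 0.197). The sestrins, which restrain mTORC1 under stress, did not pass either, with SESN1 at 0.13 (interval -0.08 to 0.33) and SESN2 at 0.09 (interval -0.27 to 0.45).

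Among 12 measured genes of apoptosis and its modulators, 3 rose, 2 fell and 7 did not pass, which is 41.7% called beside 21.1% over all tested genes. The 3 that rose act on apoptosis without being BCL2 family members or death receptors. CYFIP2, a partner of the fragile X protein and of the WAVE actin complex, had the largest rise of the 27, with signals of 1096.1, 1111.5 and 1065.3 with Ecd siRNA and of 715.3, 615.2 and 596.5 with control siRNA. The groups were far apart relative to their spread, and the mean was 170% of the control mean (log2 change 0.75, SE 0.10, limma adjusted p = 0.000439). Its second probe set was at 0.41 (adjusted p = 0.0925 when tested singly).

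TP53INP1, a nuclear protein that modulates p53 and acts in autophagy, had signals of 2965.4, 3077.6 and 3254.5 with Ecd siRNA and of 1976.8, 1729.4 and 2319.8 with control siRNA. All Ecd siRNA arrays were above the control arrays (log2 change 0.63, SE 0.10, limma adjusted p = 0.00159). Its second tested probe set was at 0.20, with groups that overlapped (adjusted p = 0.739 when tested singly), and another lay under the filter. The mean over all its probe sets was at 0.41 and did not pass (adjusted p = 0.181). SUSD6, a membrane protein also known as DRAGO, had signals of 3889.9, 3943.3 and 3863.7 with Ecd siRNA and of 2617.8, 2682.4 and 2619.6 with control siRNA. The replicates of each group were close together, and the change of 0.56 had an SE of 0.06 (limma adjusted p = 0.000151), the smallest adjusted p of the 27.

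The BCL2 family members of the list that were measured, PMAIP1 and BAX, were lower in mean with Ecd siRNA, and PMAIP1 passed. PMAIP1 encodes NOXA, a BH3-only protein that neutralises MCL1. It had signals of 3525.9, 2687.7 and 2792.2 with Ecd siRNA and of 4008.9, 3928.4 and 4200.1 with control siRNA. Every Ecd siRNA array was below the control arrays, with replicate 1 nearest to them (log2 change -0.44, SE 0.10, limma adjusted p = 0.0103). Its second probe set was lower by 0.65 on the log2 scale (adjusted p = 0.00154 when tested singly). The gene's call did not hold without the intensity trend (adjusted p = 0.0614).

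BAX, the effector that permeabilises the outer mitochondrial membrane, had signals of 355.3, 751.8 and 504 with Ecd siRNA and of 678.7, 1169.3 and 852.3 with control siRNA. The spread within each group was wide, and the highest Ecd siRNA array lay above the lowest control array. Its mean was 59.7% of the control mean, a log2 change of -0.76 with an interval of -1.32 to -0.19 that did not pass (limma adjusted p = 0.0585). The second BAX probe set was at -0.48 (adjusted p = 0.156 when tested singly). BAX passed without Ecd siRNA replicate 2 (-1.02, adjusted p = 0.0139) and without control siRNA replicate 1 (-0.94, adjusted p = 0.0434). It was smaller without Ecd siRNA replicate 1 (-0.50, adjusted p = 0.173) and without control siRNA replicate 2 (-0.55, adjusted p = 0.18). TRIAP1, a small mitochondrial protein that opposes apoptosis, fell, with signals of 2242.5, 2272.4 and 2328.5 with Ecd siRNA and of 2852.9, 2771.8 and 3006.3 with control siRNA. Each Ecd siRNA array was below each control array (log2 change -0.33, SE 0.07, limma adjusted p = 0.00686), and with arrays set to a common median the adjusted p was 0.0569.

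**Figure D2:**
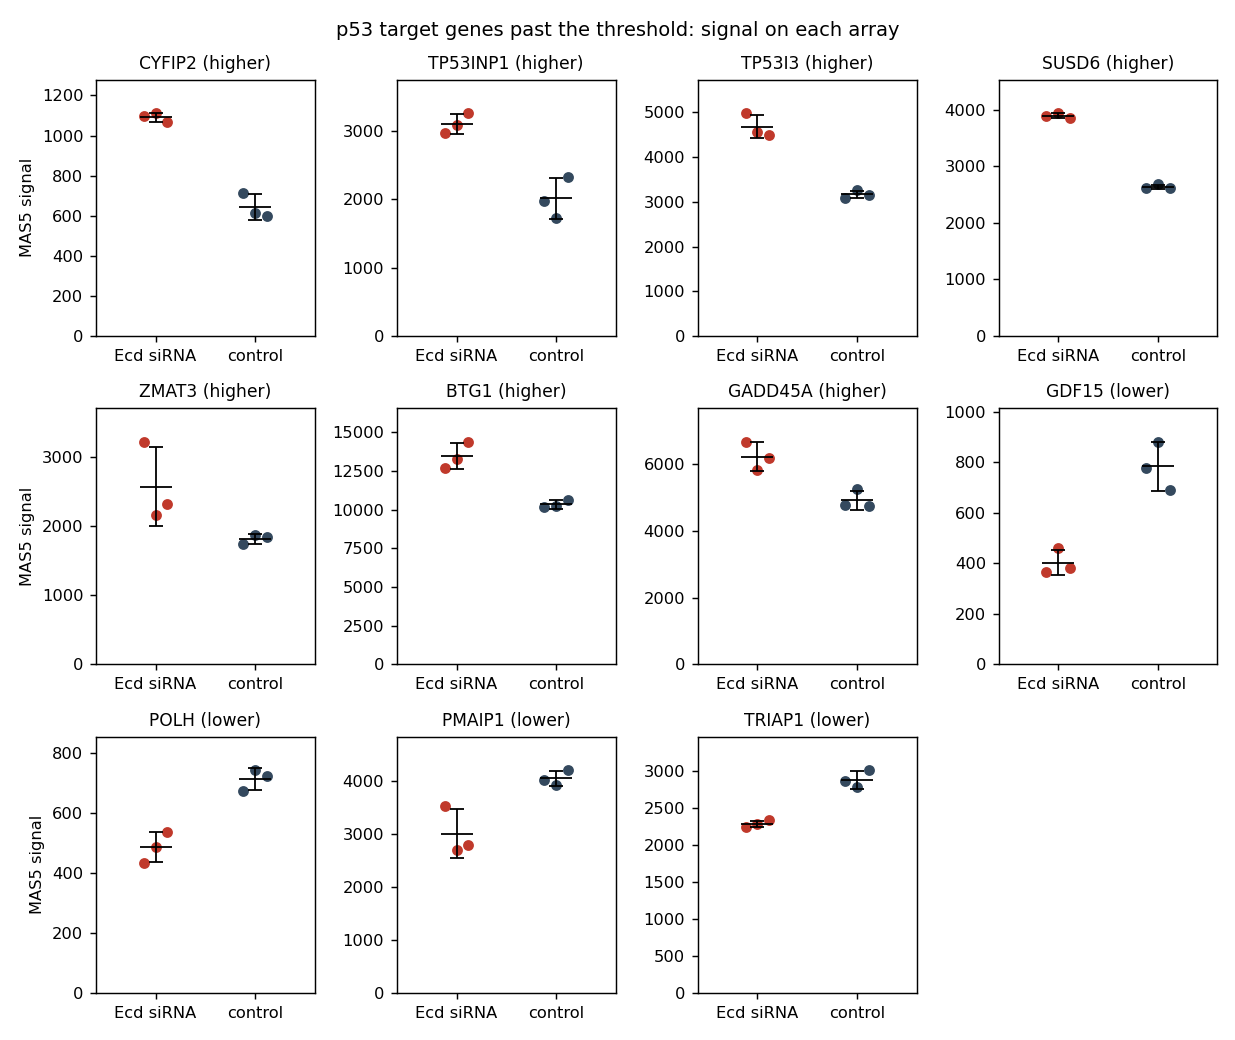
MAS5 signal (y axis, linear, from 0) of the 11 p53 target genes past the threshold on each of the 3 Ecd siRNA arrays (left, red) and the 3 control siRNA arrays (right, dark). Points are arrays, the horizontal line is the group mean and bars are SDs. CYFIP2, TP53INP1, TP53I3, SUSD6, ZMAT3, BTG1 and GADD45A are higher and GDF15, POLH, PMAIP1 and TRIAP1 lower with Ecd siRNA, with no overlap of the groups in any panel.

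The death receptors and the remaining apoptotic targets did not pass in their brightest probe sets. FAS, the receptor of FAS ligand, had signals of 3685.7, 3557.1 and 3220.6 with Ecd siRNA and of 3090.8, 3200.2 and 3105.4 with control siRNA. The groups just failed to overlap, at a log2 change of 0.15 (interval -0.01 to 0.31, limma adjusted p = 0.183). The other 4 FAS probe sets were lower, by 0.14 to 0.20 on the log2 scale, so the direction for FAS depends on the probe set. Tested singly by limma, 0 of 5 passed, with 1 at an unadjusted p under 0.05. That probe set was a lower one, at -0.196, and its groups did not overlap (adjusted p = 0.119). PHLDA3, an inhibitor of AKT signalling, was at 0.15 (interval -0.03 to 0.34). Its second probe set was at 0.31, without overlap of the groups (limma adjusted p = 0.0955 when tested singly). PERP, a desmosomal protein needed for p53-dependent apoptosis, was at 0.06 (interval -0.06 to 0.18). All 4 tested PERP probe sets were higher. The one at 0.26 had groups that did not overlap (limma adjusted p = 0.163 when tested singly). AEN, an apoptosis-enhancing nuclease, was at -0.20 (interval -0.56 to 0.15).

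TNFRSF10A and TNFRSF10B encode the receptors of TRAIL that carry a death domain, DR4 and DR5. TNFRSF10A had signals of 1716.9, 1302.9 and 1530.8 with Ecd siRNA and of 1808.9, 1766.9 and 2080.5 with control siRNA. The groups did not overlap, but the log2 change of -0.32 did not pass in the gene fit (SE 0.11, limma adjusted p = 0.0711). It passed where Ecd siRNA replicate 1 was left out (-0.41, adjusted p = 0.0271), and was at -0.21 without Ecd siRNA replicate 2 (adjusted p = 0.226) and at -0.24 without control siRNA replicate 3 (adjusted p = 0.216). In the fit of all probe sets, its other 2 probe sets were called lower, at -0.45 (adjusted p = 0.0273) and -0.40 (adjusted p = 0.0164), and the mean over its probe sets was at -0.39 (adjusted p = 0.00875). TNFRSF10B was at 0.08 (interval -0.07 to 0.23), and of its 4 probe sets 3 were higher, 1 lower and 0 called by limma, also at an unadjusted p under 0.05.

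The decoy receptors of TRAIL are targets of p53 outside the 30. TNFRSF10D, the decoy DcR2 whose death domain is truncated, had signals of 1929.9, 1628.6 and 1782.7 with Ecd siRNA and of 566.3, 575 and 674 with control siRNA. The lowest Ecd siRNA array was well above the highest control array, and the mean was 294% of the control mean (log2 change 1.53, SE 0.11, limma adjusted p = 4.15e-06). Its second probe set was at 0.55 and did not pass singly (adjusted p = 0.168). TNFRSF10C, the decoy DcR1, was at 0.08 (limma adjusted p = 0.775); it was added after its value was seen, to complete the receptor family. Whether the receptors differ from each other in their change was not tested.

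**Figure D3:**
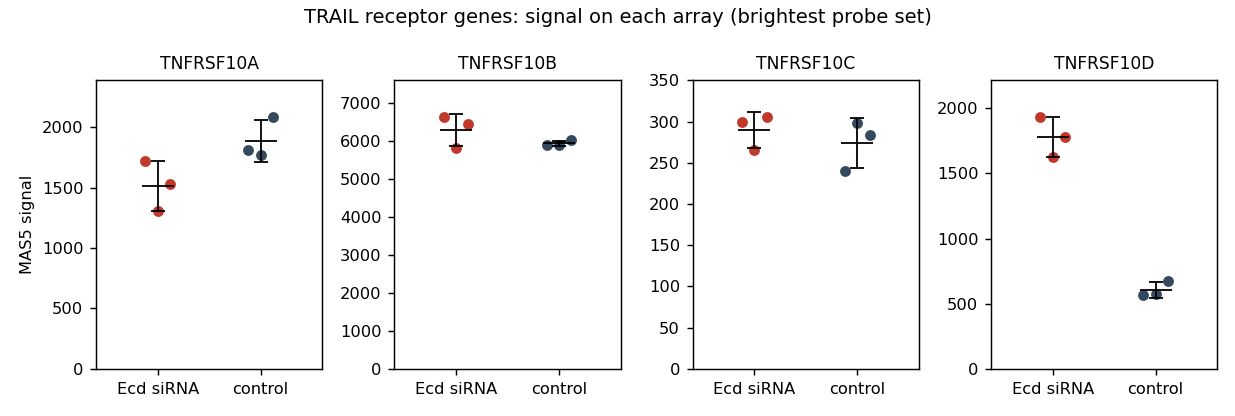
MAS5 signal (y axis, linear, from 0) of the 4 TRAIL receptor genes on each of the 3 Ecd siRNA arrays (left, red) and the 3 control siRNA arrays (right, dark), each gene in its brightest probe set; y axes differ between panels. Lines are means and bars SDs. TNFRSF10D is at 294% of control, TNFRSF10A lies lower without passing the threshold, and TNFRSF10B and TNFRSF10C overlap between the groups.

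Testing every probe set on its own also gave calls in both directions. Of the 77 probe sets of the 27 genes, 69 were above the filter, and 10 of these were called higher and 7 lower, against 8.3% higher and 8.62% lower over 27009 single-symbol probe sets, 16.9% together. Of the 69, 34 had _s_at or _x_at names. The probe sets of 1 gene share its transcript and are not replicates of each other. Of 16 genes with several tested probe sets, 6 had probe sets of both signs, namely MDM2, FAS, TNFRSF10B, SFN, SESN2 and POLH, and in 0 genes were probe sets called in opposite directions. The other 10 of the 16 had all their probe sets on 1 side of 0, among them ZMAT3 and PERP above it and MDM4 and BAX below it.

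**Figure D4:**
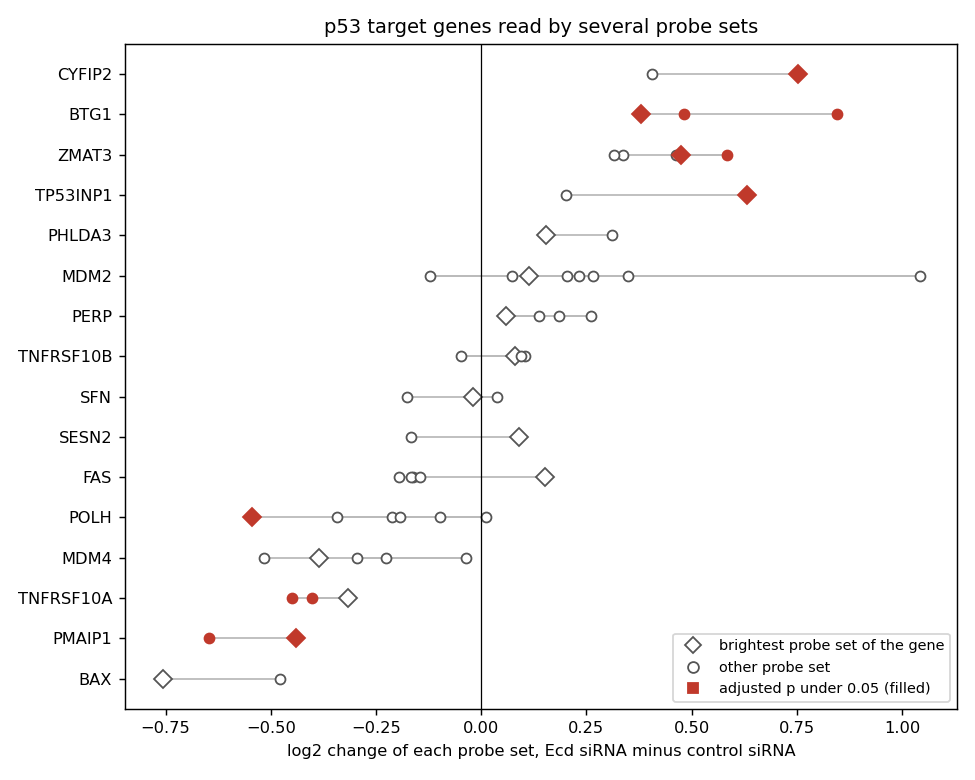
Log2 change of each probe set above the filter (x axis, Ecd siRNA minus control siRNA) for the 16 p53 target genes read by several, ordered by their median change. Diamonds are each gene's brightest probe set, circles the others, and filled red symbols passed an adjusted p of 0.05 in the fit over all probe sets. BTG1 and ZMAT3 lie wholly to the right of 0, TNFRSF10A, PMAIP1 and BAX wholly to the left, and MDM2 and FAS on both sides.

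Other genes of the pathway also went both ways. A list of 46 further p53 targets was written from textbook knowledge, with earlier results of these data known. Of the 46, 40 were tested, 4 were called higher and 5 lower and 31 did not pass. That is 22.5% called against 21.1% over all tested genes, and the median log2 change of the 40 was 0.01. CDKN1A, the p21 inhibitor of cyclin-dependent kinases and the best known arrest target of p53, had signals of 8458.5, 7367.1 and 8855.2 with Ecd siRNA and of 7259.1, 7218.3 and 7417.4 with control siRNA. The lowest Ecd siRNA array lay below the highest control array, and the change of 0.17 did not pass (SE 0.07, limma adjusted p = 0.149). It passed where Ecd siRNA replicate 2 was left out (0.25, adjusted p = 0.0392), and was at 0.11 without Ecd siRNA replicate 3 (adjusted p = 0.37).

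Besides TNFRSF10D, the 3 other targets with the smallest adjusted p were KITLG, TGFA and DRAM1. KITLG, the ligand of the KIT receptor, had signals of 1864.4, 1655.2 and 1678 with Ecd siRNA and of 3051.9, 3128.9 and 2927.9 with control siRNA (log2 change -0.81, SE 0.08, limma adjusted p = 4.47e-05). TGFA, a ligand of the EGF receptor, had signals of 3899.1, 4222.4 and 4099.9 with Ecd siRNA and of 5995.8, 5874 and 5763.8 with control siRNA (log2 change -0.53, SE 0.06, limma adjusted p = 0.000215). Both growth factor genes were lower on every Ecd siRNA array than on any control array. DRAM1, a lysosomal membrane protein that promotes autophagy, had signals of 3071.8, 3378.3 and 3403.3 with Ecd siRNA and of 2389.8, 2328.9 and 2764.4 with control siRNA and rose without overlap (log2 change 0.40, SE 0.09, limma adjusted p = 0.00763).

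Of 25 relatives and upstream regulators of p53, 21 were tested, 1 rose and 1 fell, which is 9.52% called against 21.1% over all tested genes, and the median over the 21 was 0.04. PPP1R13L, known as iASPP, an inhibitor of p53-driven apoptosis, had signals of 3955, 3494.1 and 3846.3 with Ecd siRNA and of 2174.3, 2658.4 and 2741.3 with control siRNA. The groups did not overlap, and the mean was 149% of the control mean (log2 change 0.58, SE 0.10, limma adjusted p = 0.00178). USP7, the deubiquitinase that acts on both MDM2 and p53, had signals of 3347.9, 3924.9 and 4090.2 with Ecd siRNA and of 4507.6, 4922 and 4494.2 with control siRNA (log2 change -0.30, SE 0.09, limma adjusted p = 0.0326). That call did not hold in 10 of 17 alternatives, among them every omission of 1 array except Ecd siRNA replicate 3, and the mean of its probe sets was at 0.01.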

How the data were processed

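The authors deposited a linear intensity for every probe set on every array, made with MAS5 per the submitters' processing notes, with no version named and no detection calls in the table. It held 54675 probe sets on 6 arrays. With 2% trimmed at each end, the mean was 500.05 on every array, so a global shift of all transcripts is hidden. Genes were named from the GEO platform annotation: 41091 probe sets had 1 symbol, 1801 several, 11721 were unnamed there and 62 were control probe sets.

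Signals were converted to log2(signal + 16), which understates changes of dim transcripts. Each gene was read by its single-symbol probe set with the highest mean, and entered the test if it ranked among the top 60% of probe sets (a signal of 84.6). The groups and replicate numbers came from the sample titles. The difference of Ecd siRNA minus control siRNA was fitted without covariates with limma 3.58.1 (lmFit, eBayes with intensity trend, R 4.3.3), with Benjamini-Hochberg adjustment over 14603 genes, or over 27009 probe sets in a second fit. The fit was run on simulated data with planted changes and noise drawn independently for each array. That run does not cover noise shared between arrays. The number of arrays limits the precision, and the p-values rest on the spread among 6 cultures, biological replicates per the labels.

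Targets past the threshold, and MDM2, MDM4, BAX, FAS, GADD45A and SFN whatever their result, are given array by array; BBC3 and BTG2 were on that list too. ECD and CDKN1A were always included, with the 4 genes of smallest adjusted p among those called in each of the other pathway lists. The targets and lists were chosen with earlier results of these data known. Same-numbered arrays of the groups deviated with correlations of -0.00926, 0.0789 and 0.152 over genes, and differently numbered ones with -0.134 to 0.0566. With these values and no batch named in the labels, the numbers were not taken as pairs. The alternatives were each array left out in turn, the replicate number as a block, array weights, no intensity trend, pseudocounts of 1 and 64, arrays set to 1 median or quantile normalized, a filter at the upper 40% or none, and 2 other choices of probe set.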

Additional observations from a re-analysis of the deposited data

How the results depend on the processing

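Of the 27 genes, 7 rose and 4 fell; under the 17 alternatives 5 to 7 rose and 3 to 6 fell. Of the 69 probe sets above the filter, 10 were called higher and 7 lower; under the 15 alternatives that apply to them, 7 to 11 were higher and 5 to 9 lower. Leaving out 1 array at a time gave 6 to 7 genes higher and 4 to 6 lower, and 7 to 10 probe sets higher and 5 to 9 lower. Over 36 genes, namely the analysed members, ECD and the other p53 pathway genes given with a log2 change, and these alternatives, 567 of 601 comparisons kept their side of the threshold, 19 calls were lost, 14 were gained and 1 turned, that of USP7 when its probe sets were averaged (0.01, adjusted p = 0.977). For 11 genes, among them GDF15, BAX, PMAIP1, CYFIP2 and TP53I3, probe sets without _s or _x gave no value, since the gene had none or none above the filter; in the counts of called genes above, a gene with no other probe set kept its own. CYFIP2, SUSD6, TP53I3 and BTG1 passed under every alternative that gave them a value. With the replicate block 7 genes rose and 6 fell, 10 probe sets were higher and 9 lower, and BAX (-0.76, adjusted p = 0.00103) and TNFRSF10A (-0.32, adjusted p = 0.043) joined the falls; the other 34 genes kept their calls. The labels name nothing that same-numbered arrays share besides the number, so whether they shared a batch is not known. Where a call changed, the cause was not tested. The number of arrays, 3 per group, limits the precision, and uncalled changes were not all small, as the -0.76 of BAX shows. Without detection calls, how far a dim signal stood above background was not known.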
